A study of Mus musculus with 6 samples.

Results

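The genes of the mouse major histocompatibility complex (MHC), named H2, and the genes that make and load antigenic peptides were followed in lacrimal glands of Eda-/- and wild-type mice. All genes whose GRCm38 symbol starts with H2- were taken, pseudogenes included, together with B2m, Tap1, Tap2, Tapbp, Psmb8, Psmb9, Psmb10, Cd74, Ciita and Nlrc5. This gave 55 members of the 50686 genes in the deposited count table, of which 45 were H2 genes and 11 of those were annotated as pseudogenes. The glands came from 3 Eda-/- mice, titled Tabby, and 3 wild-type mice, titled Blacky, each 13 weeks old, and both groups carried the strain label C57BL/6. The samples of a group are biological replicates in the series' design text. The Eda-/- mice lack ectodysplasin A, a TNF-like ligand, from the germline, so that the gland had developed without it. The labels name neither the line the mutants came from nor whether the wild-type mice were littermates.

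MHC class I molecules stand on almost every nucleated cell and show peptides cut by the proteasome in the cytosol to cytotoxic T cells and natural killer cells. Their heavy chain is held by beta-2-microglobulin, and TAP and tapasin bring the peptides to it in the endoplasmic reticulum. MHC class II molecules are found mainly on dendritic cells, macrophages and B cells, carry peptides from the endosome to helper T cells, and can be induced on epithelium by interferon gamma. In the lacrimal gland, class II on epithelial cells is known from autoimmune dry eye.

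Eda was read first as a check of the labels. It had 2, 0 and 0 counts in Eda-/- libraries 1, 2 and 3, against 41, 48 and 42 counts in wild-type libraries 1, 2 and 3. Values below keep this order of libraries. Totals were 11894395 to 14480331 counts in Eda-/- libraries and 13670343 to 15700899 counts in wild-type libraries. The 55 members held 0.04%, 0.0375% and 0.0284% of all counts in Eda-/- libraries, against 0.0517%, 0.0585% and 0.0839% in wild-type libraries. These are shares of raw totals, of which the secreted product Mucl2 took more in Eda-/- libraries. Mucl2 had 1546495, 917502 and 1334412 counts there, against 607653, 682606 and 582816 in wild-type libraries. By library totals the median of all genes was lower in Eda-/- glands too (log2 fold change -0.28). Wild-type 3, with the largest share, also had the highest CPM (counts scaled to library size by trimmed mean of M-values) of the wild-type libraries in 25 of the 29 members that were tested. The lacrimal acinar markers were present: the summed level of the 8 listed genes was 87500 to 136000 CPM in Eda-/- libraries and 38800 to 41400 CPM in wild-type libraries, most of it from the secreted product Mucl2.

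Of the 55 members 29 had enough counts to be tested, and 4 of these were higher and 9 lower in Eda-/- glands (quasi-likelihood test of edgeR; p-values adjusted over 13178 genes by Benjamini-Hochberg, threshold 0.05). Over all tested genes 6.21% were called higher and 6.90% lower, 13.1% in all, and DESeq2 called 9.43%; an unadjusted p under 0.05 was found for 27.5%, and the groups did not overlap in 32.1%. The 16 other members did not pass, and 14 of these had log2 fold changes below 0. The median log2 fold change of the tested members was -0.80, against 0 for all tested genes. In 16 tested members the 3 Eda-/- libraries all lay below the 3 wild-type libraries, in 5 they lay above, and 8 members overlapped; over all tested genes 16.2% lay below and 15.9% above. A member that passed the filter through 1 group alone had to differ, so these counts are not over all 55. Among the called members this was so for H2-Ea-ps, H2-Q1 and H2-Q10, with 0 to 3 counts per wild-type library. It was also so for H2-Q6 and H2-M3, with 1 to 9 counts per Eda-/- library. H2-DMb1 came close to this, with 6, 9 and 3 counts in Eda-/- libraries against 30, 35 and 78 in wild-type libraries. The number of lower calls moved with single libraries. It was 3 without Eda-/- 1, 5 without wild-type 2 and 15 without wild-type 1, and the median was -0.52 without wild-type 3. The 4 higher calls, H2-Ea-ps, H2-Q1, H2-Q10 and H2-K2, passed without each library in turn. For H2-Ea-ps, H2-Q1 and H2-Q10 the limit of the filter holds in these fits too, so passing them is no separate support.

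H2-Ea-ps had reads in all 3 Eda-/- libraries and in none of the wild-type libraries, while H2-Aa, H2-Eb1, H2-DMa and H2-DMb1 were lower in Eda-/- glands. Of the 12 class II members, 3 of them pseudogenes, 6 were tested, 1 rose and 4 fell. Of the class II chains called lower, 2 passed without Eda-/- 3 and 2 without wild-type 2, and H2-Aa, H2-Eb1, H2-DMa and H2-DMb1 each missed the threshold without Eda-/- 1. All 12 together reached 48.2, 44.9 and 40.2 CPM in Eda-/- glands, against 65.2, 85.6 and 119 CPM in wild-type glands. Without H2-Ea-ps the sums were 42.6, 38.4 and 33.8 CPM in Eda-/- glands, against 65.2, 85.6 and 119 CPM in wild-type glands, a ratio of the means of 0.425. The groups did not overlap in either sum.

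H2-Ea-ps is the gene of the E alpha chain (ENSMUSG00000036322.10, GRCm38 chromosome 17, 34341959 to 34344645, minus strand), annotated as a polymorphic pseudogene. As background, mice of the b haplotype, to which C57BL/6 belongs, carry a deletion over its promoter and make no E alpha chain, while mice of other haplotypes such as k and d transcribe it and show the E molecule on the cell surface. It had 64, 69 and 82 counts in Eda-/- glands, against 0, 0 and 0 counts in wild-type glands. That is 5.59, 6.47 and 6.39 CPM in Eda-/- glands, with a mean of 6.15 ± 0.488 CPM (SD, n = 3). With a floor of 3 counts over the wild-type group, the level was at least 99.7-fold higher in Eda-/- glands (edgeR adjusted p = 2.63e-08). None of its 31-base words occurs in another annotated gene. H2-Ea-ps made up 11.6%, 14.4% and 15.9% of the summed class II level in Eda-/- libraries. The haplotype of the MHC in these mice was not tested, and a difference of haplotype and the loss of Eda cannot be told apart here. Nor was it tested how reads of another haplotype would be counted against the C57BL/6 reference, a limit that touches every polymorphic H2 gene below.

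The partner chain of E alpha is encoded by H2-Eb1. It had 12.7, 10.6 and 8.65 CPM in Eda-/- glands, against 18.3, 25.6 and 33.6 CPM in wild-type glands. The groups did not overlap, and the fold change was -1.28 (log2, SE 0.28, edgeR adjusted p = 0.0399). It did not pass without Eda-/- 1, 2 or 3 or wild-type 2 (adjusted p up to 0.139). H2-Aa and H2-Ab1 encode the alpha and beta chains of the A molecule, the class II molecule of b haplotype mice. H2-Aa had 14.4, 13.7 and 13.8 CPM in Eda-/- glands, against 27.2, 32.6 and 46.1 CPM in wild-type glands. The Eda-/- libraries were close to one another and far below all wild-type libraries (log2 fold change -1.34, SE 0.19, edgeR adjusted p = 0.00452; 0.0553 without Eda-/- 1). H2-Ab1 had 12.8, 10.9 and 8.81 CPM in Eda-/- glands, against 15.3, 21.9 and 30.7 CPM in wild-type glands. It did not pass (-1.07, SE 0.32, edgeR adjusted p = 0.107), although its groups did not overlap, and it passed without wild-type 1 or wild-type 3 (lowest adjusted p 0.00137). With all libraries it was called by DESeq2 (adjusted p = 0.0183) and limma-voom (adjusted p = 0.0206).

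H2-DMa and H2-DMb1 encode the chains of H2-M, which exchanges the invariant chain fragment in the class II groove for antigenic peptide. H2-DMa had 0.698, 1.41 and 1.17 CPM in Eda-/- glands, against 1.93, 2.71 and 2.82 CPM in wild-type glands. Every Eda-/- library was below every wild-type library (-1.19, SE 0.30, edgeR adjusted p = 0.0161), but it did not pass without Eda-/- 1 or wild-type 2 (adjusted p up to 0.0711). H2-DMb1 had 0.524, 0.843 and 0.234 CPM in Eda-/- glands, against 1.87, 2.06 and 5.01 CPM in wild-type glands. It fell by 2.50 (log2, SE 0.55, edgeR adjusted p = 0.0186) and by 1.90 without wild-type 3, and did not pass without Eda-/- 1 or 3. With 6, 9 and 3 counts in Eda-/- libraries, H2-DMb1 passed the low-count filter mainly through wild-type glands, which favoured a difference. Of the 31-base words of H2-DMb1 31.4% recur elsewhere, most of them in H2-DMb2, so reads of this pair can be assigned to the wrong copy. H2-DMb2 had too few counts to be tested, 10, 3 and 8 in Eda-/- libraries and 2, 3 and 5 in wild-type libraries. H2-Eb2 (5, 1 and 0 counts in Eda-/- libraries; 4, 3 and 2 in wild-type libraries) and H2-Ob, the beta chain of the H2-M inhibitor H2-O (1, 6 and 6 counts in Eda-/- libraries; 2, 2 and 8 in wild-type libraries), were not tested either.

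Neither of the class II pathway members outside the complex passed in edgeR, although both had an unadjusted p under 0.05. Cd74 encodes the invariant chain, which fills the class II groove until the endosome. It had 29.7, 28.6 and 20.7 CPM in Eda-/- glands, against 35.5, 43.6 and 57.7 CPM in wild-type glands, without overlap. It did not pass in edgeR (-0.80, SE 0.23, adjusted p = 0.0878), but passed in DESeq2 and in limma-voom and without wild-type 1 or 3. Ciita encodes the coactivator that turns on class II transcription. It had 1.83, 1.97 and 0.936 CPM in Eda-/- glands, against 2.43, 2.06 and 3.66 CPM in wild-type glands, where the nearest libraries of the groups almost met (-0.79, SE 0.31, edgeR adjusted p = 0.107). Per kilobase of exon, Cd74 was the most abundant class II pathway member, at 15.7 CPM per kb in Eda-/- glands and 27.2 CPM per kb in wild-type glands. H2-Eb1 followed in wild-type glands (5.49 CPM per kb in Eda-/- glands, 13.3 in wild-type glands), then H2-Aa (3.68 in Eda-/- glands, 9.30 in wild-type glands) and H2-Ab1 (4.22 in Eda-/- glands, 8.82 in wild-type glands). In Eda-/- glands H2-Ea-ps, at 5.94 CPM per kb, stood level with H2-Eb1.

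**Figure D1:**
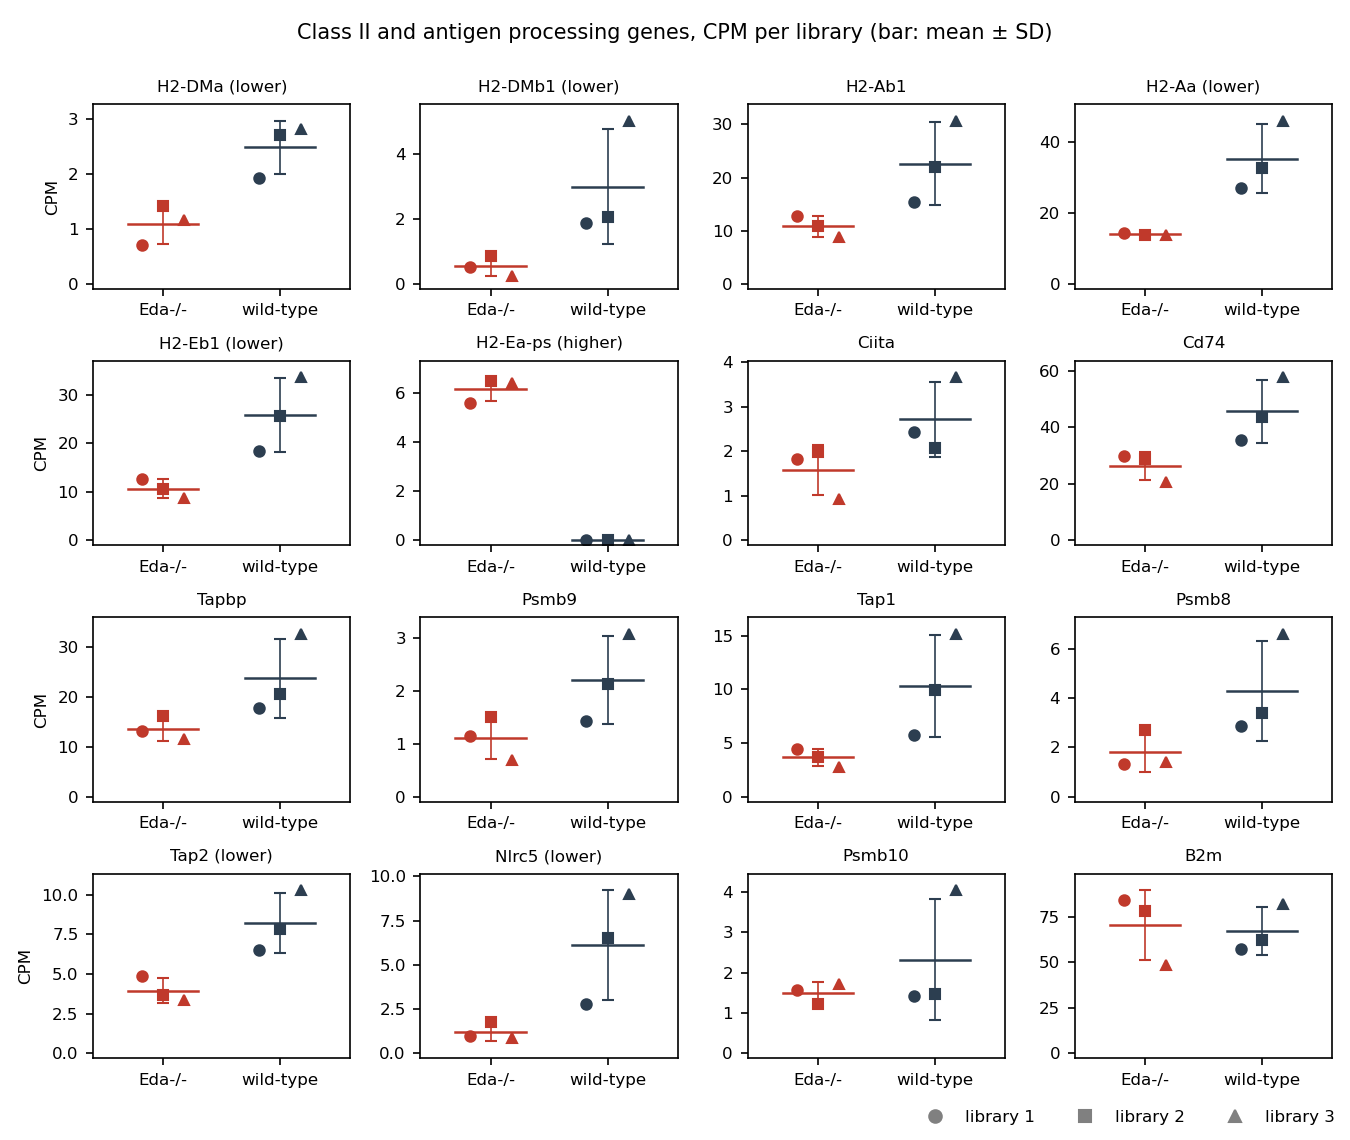
Levels in CPM of the tested class II chains, class II machinery and class I machinery, one panel per gene, Eda-/- libraries at the left and wild-type libraries at the right; symbols mark libraries 1 to 3, lines the mean and bars the SD (n = 3). H2-Ea-ps lies at 5.59 to 6.47 CPM in Eda-/- libraries and at 0 in wild-type libraries, and wild-type 3 is the highest wild-type library in every panel but that of H2-Ea-ps.

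Among the classical class I genes, which present peptides to cytotoxic T cells, H2-D1 fell and H2-K1 did not pass. H2-D1 (ENSMUSG00000073411.11, chromosome 17, 35262730 to 35267499) had 58.8, 50.8 and 47.1 CPM in Eda-/- glands, against 101, 105 and 136 CPM in wild-type glands. Its groups were far apart, with a mean of 52.2 ± 6.01 CPM in Eda-/- glands and 114 ± 19.2 CPM in wild-type glands (SD, n = 3 each), a log2 fold change of -1.13 with an SE of 0.12 (adjusted p = 0.000268 in edgeR), and it passed under every alternative. H2-K1 had 69.3, 62.1 and 52.0 CPM in Eda-/- glands, against 69.1, 65.3 and 98 CPM in wild-type glands. These overlapped (-0.34, SE 0.19, edgeR adjusted p = 0.309; -0.13 at the least and -0.44 at the most when 1 library was left out). As a share of the summed CPM of the 32 class I heavy chain members, H2-D1 took 24.9%, 21.8% and 25% in Eda-/- libraries, against 36%, 35.5% and 34.6% in wild-type libraries. H2-K1 took 29.3%, 26.6% and 27.6% in Eda-/- libraries, against 24.6%, 22.2% and 24.9% in wild-type libraries. H2-K1 thus stood above H2-D1 within each Eda-/- library and below it within each wild-type library, by shares that do not overlap between the groups. Per kilobase the genes were level in Eda-/- glands (20.3 CPM per kb for H2-D1 and 20.8 for H2-K1), and in wild-type glands H2-D1 had 44.2 and H2-K1 26.4 CPM per kb. H2-D1 shares 26.9% and H2-K1 22.8% of their 31-base words with other genes, so some of their reads are uncertain. H2-K2, a transcribed pseudogene beside H2-K1, had 2.97, 1.59 and 2.34 CPM in Eda-/- glands, against 0.935, 0.765 and 0.963 CPM in wild-type glands. It was higher in every Eda-/- library (1.37, SE 0.30, edgeR adjusted p = 0.00746).

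The Q region, which holds nonclassical class I genes, moved both ways. Of its 8 members, 2 of them pseudogenes, 6 were tested, H2-Q1 and H2-Q10 rose and H2-Q6 fell. The sum over the region hid this: it was 10.7, 10.8 and 7.33 CPM in Eda-/- glands and 8.92, 7.82 and 14.6 CPM in wild-type glands, with overlap and a ratio of 0.921. H2-Q1 (chromosome 17, 35320405 to 35325099) had 30, 29 and 30 counts in Eda-/- glands, against 1, 1 and 3 counts in wild-type glands. These are 2.62, 2.72 and 2.34 CPM in Eda-/- glands and 0.0624, 0.0588 and 0.193 CPM in wild-type glands, close to 0 in each wild-type library (4.52, SE 0.42, edgeR adjusted p = 2.92e-06; 5.21 without wild-type 3). H2-Q10 (35470089 to 35474563), known as a secreted class I molecule of the liver, had 22, 17 and 12 counts in Eda-/- glands, against 1, 3 and 2 counts in wild-type glands. It was low in both groups, at 1.92, 1.59 and 0.936 CPM in Eda-/- glands and 0.0624, 0.176 and 0.128 CPM in wild-type glands (3.48, SE 0.50, edgeR adjusted p = 0.000244). H2-Q6 (35424850 to 35430055), one of the genes of the Qa-2 antigen, had 3, 1 and 1 counts in Eda-/- glands, against 27, 17 and 24 counts in wild-type glands. Here the Eda-/- libraries were the ones close to 0, at 0.262, 0.0937 and 0.078 CPM, against 1.68, 1.0 and 1.54 CPM in wild-type glands (-3.21, SE 0.51, edgeR adjusted p = 0.000586; -3.91 without Eda-/- 1).

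The other Q genes overlapped between groups. H2-Q7, also a Qa-2 gene, had 0.786, 0.656 and 0.312 CPM in Eda-/- glands, against 0.873, 0.647 and 1.67 CPM in wild-type glands. Its value was -0.87 (edgeR adjusted p = 0.234), and -0.39 without wild-type 3. H2-Q4 had 3.58, 4.69 and 3.12 CPM in Eda-/- glands, against 4.80, 4.59 and 8.99 CPM in wild-type glands (-0.69, edgeR adjusted p = 0.153; -0.31 without wild-type 3). H2-Q2 had 1.48, 0.937 and 0.546 CPM in Eda-/- glands, against 1.31, 1.12 and 1.28 CPM in wild-type glands (-0.34, edgeR adjusted p = 0.593). Neither gene separated the groups. The Q genes are near copies of one another: shared 31-base words made up 24.1% of H2-Q1, 30.3% of H2-Q10, 51.8% of H2-Q6, 39.2% of H2-Q7 and 53.0% of H2-Q4. Reads can therefore be moved between them by the counting, and opposite changes in near copies are uncertain for that reason. The pseudogene H2-Q5 was not tested and had 0, 1 and 0 counts in Eda-/- libraries, against 1, 3 and 12 counts in wild-type libraries.

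In the T region no gene passed. Of its 7 members, 3 of them pseudogenes, 3 were tested, and in edgeR 0 were called although 2 of them had an unadjusted p under 0.05; DESeq2 called none and limma-voom called H2-T23. H2-T23 encodes Qa-1, the ligand of the CD94/NKG2 receptors of natural killer cells. It had 45.6, 58.8 and 37.8 CPM in Eda-/- glands, against 58.9, 66.0 and 85.4 CPM in wild-type glands, just without overlap (-0.57, edgeR adjusted p = 0.161; 0.0389 without Eda-/- 2). H2-T22, a ligand of some gamma delta T cell receptors, had 31.3, 33.1 and 25.9 CPM in Eda-/- glands, against 30.7, 34.8 and 41.3 CPM in wild-type glands (-0.24, edgeR adjusted p = 0.2). H2-T24 had 15.5, 14.4 and 14.3 CPM in Eda-/- glands, against 8.92, 12.8 and 13.7 CPM in wild-type glands, the one T gene with a value above 0 (0.32, edgeR adjusted p = 0.153). Of the 31-base words of H2-T22 67.4% recur elsewhere, most of them in H2-T10, an untested pseudogene with 2, 2 and 2 counts in Eda-/- libraries and 9, 6 and 6 in wild-type libraries. H2-T-ps, also untested, had 8, 9 and 4 counts in Eda-/- libraries and 2, 1 and 5 in wild-type libraries. Of the 14 members of the M region 1 was tested. This was H2-M3, which presents N-formylated peptides of bacteria and mitochondria, with 0.611, 0.187 and 0.702 CPM in Eda-/- glands, against 1.18, 1.41 and 1.54 CPM in wild-type glands. It fell by 1.41 (log2, SE 0.39, edgeR adjusted p = 0.0264), with DESeq2 not calling it (adjusted p = 0.0937), and it did not pass without Eda-/- 1 or 2 or wild-type 2 or 3.

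**Figure D2:**
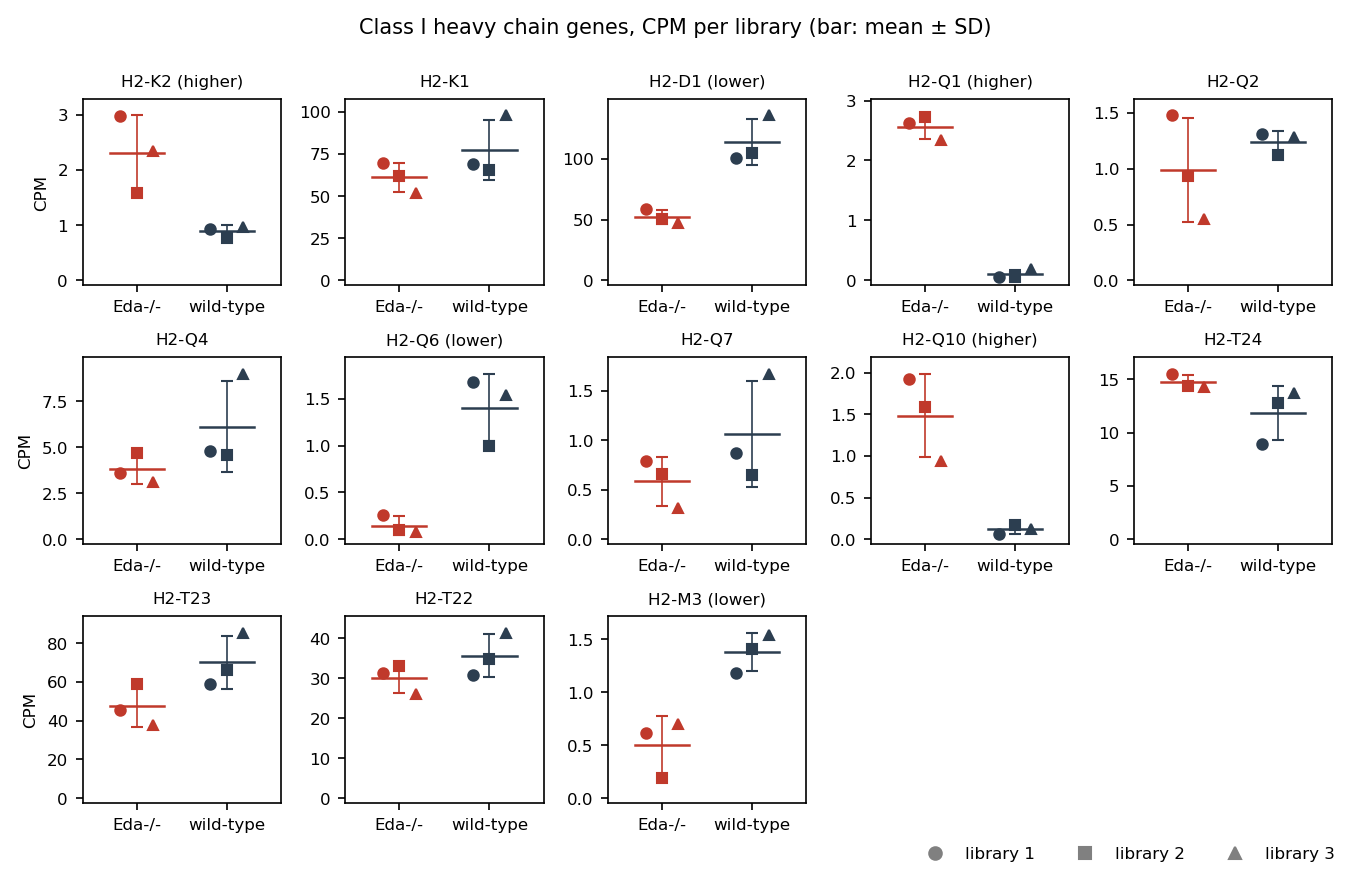
Levels in CPM of the 13 tested class I heavy chain genes, one panel per gene in order along chromosome 17, Eda-/- libraries at the left and wild-type libraries at the right; symbols mark libraries 1 to 3, lines the mean and bars the SD (n = 3). H2-D1, H2-Q6 and H2-M3 are lower and H2-K2, H2-Q1 and H2-Q10 higher in every Eda-/- library, and H2-K1 overlaps between groups.

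Of the 32 class I heavy chain members 13 were tested, with 3 higher, 3 lower and a median log2 fold change of -0.34. All 32 together reached 236, 233 and 188 CPM in Eda-/- glands, against 281, 295 and 393 CPM in wild-type glands. These sums did not overlap, with a ratio of the means of 0.679. The lower count was 2 without Eda-/- 1, wild-type 2 or wild-type 3. Among members that are neither pseudogenes nor share 10% or more of their 31-base words, 21 remain, of which 13 were tested and 5 passed in edgeR, each lower. Those 5 were H2-Aa, H2-Eb1, H2-DMa, H2-M3 and Nlrc5, and each of them missed the threshold without Eda-/- 1. The remaining untested members were sparse. H2-M2 had 2, 1 and 1 counts in Eda-/- libraries and 1, 3 and 5 in wild-type libraries, and 18 further members had under 10 counts over all 6 libraries, 3 of them 0. H2-Ke6, which encodes a dehydrogenase and no MHC molecule, had 1, 2 and 1 counts in Eda-/- libraries and 1, 2 and 3 in wild-type libraries.

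Sequence before the start sites is shown for members that passed, to set the conserved promoter letters of class I and class II genes beside their values. Class I and class II promoters share the X box, bound by the RFX complex, and the Y box, bound by NF-Y, on which the coactivators Nlrc5 (class I) and Ciita (class II) assemble. Class I genes also have enhancer A with an NF-kB site and, beside it, an interferon response element. RefSeq promoters of GRCm38.p6, from 250 bases before to 50 after the start, were found for 38 of the 55 members (41 windows), and were searched on both strands for the Y box (CTGATTGG), the X box, the NF-kB site of enhancer A and the interferon response element. The sequences below run 5′ to 3′ on the strand of the gene, with matches in capitals and all other bases in lower case.
H2-D1 (chr17:35262844-35263143, plus strand): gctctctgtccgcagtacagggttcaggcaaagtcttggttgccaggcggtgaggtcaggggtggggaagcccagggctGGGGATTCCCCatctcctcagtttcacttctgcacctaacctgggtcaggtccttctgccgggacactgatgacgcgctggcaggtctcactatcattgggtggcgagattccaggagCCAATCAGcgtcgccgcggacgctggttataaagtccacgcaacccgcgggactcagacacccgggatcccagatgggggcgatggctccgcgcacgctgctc
H2-Q6 (chr17:35424600-35424899, plus strand): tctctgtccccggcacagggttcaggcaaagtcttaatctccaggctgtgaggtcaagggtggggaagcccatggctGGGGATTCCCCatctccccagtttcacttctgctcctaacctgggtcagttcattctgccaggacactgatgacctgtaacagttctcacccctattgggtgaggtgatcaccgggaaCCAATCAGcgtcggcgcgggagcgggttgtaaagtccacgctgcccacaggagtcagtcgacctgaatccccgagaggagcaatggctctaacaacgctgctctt
H2-Q10 (chr17:35469839-35470138, plus strand): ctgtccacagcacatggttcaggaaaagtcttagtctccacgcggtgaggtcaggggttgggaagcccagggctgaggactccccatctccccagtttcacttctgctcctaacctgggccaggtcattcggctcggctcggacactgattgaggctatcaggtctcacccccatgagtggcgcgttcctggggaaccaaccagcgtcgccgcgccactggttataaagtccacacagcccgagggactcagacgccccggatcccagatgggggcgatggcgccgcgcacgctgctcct
H2-Aa (chr17:34287774-34288073, minus strand): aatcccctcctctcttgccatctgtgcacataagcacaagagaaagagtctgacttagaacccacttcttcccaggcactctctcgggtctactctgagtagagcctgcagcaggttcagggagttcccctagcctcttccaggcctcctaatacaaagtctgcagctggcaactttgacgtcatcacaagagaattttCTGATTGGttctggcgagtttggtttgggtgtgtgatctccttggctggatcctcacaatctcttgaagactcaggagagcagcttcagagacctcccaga
H2-DMb1 (chr17:34152941-34153240, plus strand): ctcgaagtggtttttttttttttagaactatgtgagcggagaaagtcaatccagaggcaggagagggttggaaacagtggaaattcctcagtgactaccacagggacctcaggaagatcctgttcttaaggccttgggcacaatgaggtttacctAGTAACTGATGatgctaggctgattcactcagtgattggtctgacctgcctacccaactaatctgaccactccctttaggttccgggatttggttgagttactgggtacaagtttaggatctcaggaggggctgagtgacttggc

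The H2-D1 and H2-Q6 windows, of genes that were lower in Eda-/- glands, each hold the NF-kB letters, 171 and 173 bases before the start, and a Y box on the opposite strand 53 and 55 bases before it. In the window of H2-Q10, which was higher in Eda-/- glands, none of the motifs was found with the exact letters searched for. This says only that those letters are not in this window. H2-Aa holds a Y box 51 bases before the start and H2-DMb1 an X box 95 bases before it. The H2-DMb1 window also holds gtgattgg after its X box, 1 letter off the Y box, which was not counted. The H2-D1, H2-Q6 and H2-Q10 windows each hold tttcacttct, close to the letters searched for as interferon response element. It was not counted either, so these windows cannot be said to lack that element. Of the other members that were lower and have an entry, H2-Eb1 holds both an X box and a Y box. H2-DMa and H2-M3 hold no exact match to the 4 motifs. In each of these windows, a motif not named may be present with other letters. The NF-kB letters occur in 10 of 32851 RefSeq promoters (0.0304%), and 4 of these windows belong to 3 members: 1 to H2-D1, 1 to H2-Q6 and 2 to H2-K1, whose level did not pass. The Y box occurs in 4.1% of all promoters and in windows of 20 members, and the X box in 3.09% of all promoters and in windows of 12 members. The exact letters searched for as interferon response element occur in 3.44% of all promoters and in windows of 3 members, B2m, H2-T22 and H2-T23. Matches to different motifs did not overlap in any member. A match describes the letters of the reference and is not a measured binding site, and these reference windows come from C57BL/6.

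Machinery of the class I pathway was lower for 2 of 8 tested members, Nlrc5 and Tap2, and B2m was not. Nlrc5, the coactivator of class I genes, lies outside the complex on chromosome 8 (94434356 to 94527272). It had 0.96, 1.78 and 0.858 CPM in Eda-/- glands, against 2.81, 6.53 and 8.99 CPM in wild-type glands. The groups did not overlap, and the wild-type libraries were widely spread (-2.36, SE 0.56, edgeR adjusted p = 0.0466; not passed without Eda-/- 1, 2 or 3 or wild-type 2, adjusted p up to 0.17). Tap1 and Tap2 form the peptide transporter of the endoplasmic reticulum. Tap2 had 4.89, 3.65 and 3.35 CPM in Eda-/- glands, against 6.55, 7.82 and 10.3 CPM in wild-type glands, and it passed under every alternative (-1.05, SE 0.20, edgeR adjusted p = 0.00253). Of the 31-base words of Tap2 14.3% occur in other genes, most in Gm15821, a long noncoding RNA that overlaps it and was itself lower (-2.03); whether reads were counted by strand is not given in the sources used here. Tap1 had 4.45, 3.75 and 2.81 CPM in Eda-/- glands, against 5.74, 9.94 and 15.2 CPM in wild-type glands. It did not pass (-1.49, edgeR adjusted p = 0.0992), but passed without wild-type 1 or wild-type 3, at -1.10 without wild-type 3. With all libraries it was called by DESeq2 (adjusted p = 0.0149) and limma-voom (adjusted p = 0.0374).

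B2m, the light chain of every class I molecule, did not move with H2-D1. It had 84.3, 78.3 and 48.3 CPM in Eda-/- glands, against 57.3, 62.3 and 81.8 CPM in wild-type glands. The groups overlapped (0.06, edgeR adjusted p = 0.912), and the sign turned without Eda-/- 1, Eda-/- 2 or wild-type 1 and with library totals (-0.22). Per kilobase, B2m was the highest member, at 81.7 CPM per kb in Eda-/- glands and 78.1 CPM per kb in wild-type glands. Psmb8, Psmb9 and Psmb10 encode the subunits that turn the proteasome into the immunoproteasome. Psmb8 had 1.31, 2.72 and 1.40 CPM in Eda-/- glands, against 2.87, 3.41 and 6.61 CPM in wild-type glands (-1.26, edgeR adjusted p = 0.0778). Psmb9 had 1.14, 1.5 and 0.702 CPM in Eda-/- glands, against 1.43, 2.12 and 3.08 CPM in wild-type glands (-1.01, edgeR adjusted p = 0.0704). Neither passed in the main edgeR fit. Both passed without wild-type 1, and Psmb8 also without Eda-/- 2. With all libraries, both were called with library totals and without the low-count filter. Psmb8 was also called by DESeq2 (adjusted p = 0.0125), with the replicate block and in the fit without robust estimation, but not by limma-voom (adjusted p = 0.0677). Psmb10 had 1.57, 1.22 and 1.72 CPM in Eda-/- glands, against 1.43, 1.47 and 4.04 CPM in wild-type glands; its value of -0.60 (edgeR adjusted p = 0.406) was 0.07 without wild-type 3. Tapbp, the tapasin that holds class I beside the transporter, had 13.2, 16.2 and 11.5 CPM in Eda-/- glands, against 17.8, 20.7 and 32.7 CPM in wild-type glands, without overlap (-0.80, edgeR adjusted p = 0.151). It passed without wild-type 1 or wild-type 3, at -0.49 without wild-type 3 (adjusted p = 0.0291). With all libraries it was called by DESeq2 (adjusted p = 0.00137) and limma-voom (adjusted p = 0.0412). The number of machinery members called lower, class I and II together, was 1 without Eda-/- 1, Eda-/- 3 or wild-type 2, 7 without wild-type 1 and 5 without wild-type 3, and DESeq2 called 6.

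Of 11 further genes that supply and load class I peptides 10 were tested, 1 rose, 3 fell and 6 did not pass, with a median of 0.04. The proteasome activator subunits Psme1 and Psme2 fell by 0.81 and 0.40 (log2; edgeR adjusted p = 0.00497 and 0.0434), as did the aminopeptidase Erap1, which trims peptides in the endoplasmic reticulum (-0.65, adjusted p = 0.0261). The chaperone calreticulin, Calr, had 523, 513 and 575 CPM in Eda-/- glands, against 415, 453 and 451 CPM in wild-type glands (0.29, edgeR adjusted p = 0.0246). The constitutive proteasome subunits Psmb5, Psmb6 and Psmb7, which the immunoproteasome subunits replace, did not pass (0.28, 0.20 and 0.22). Psme1 passed without each library in turn; Psme2 lost its call without any 1 library, Erap1 lost it without Eda-/- 1 or 3, and Calr lost it without Eda-/- 3 or wild-type 1 or 2. Of 10 genes of class II processing 8 were tested, none rose and 3 fell, with a median of -0.85, or -0.56 without wild-type 3. Ifi30, the thiol reductase of the endosome, had 5.06, 3.37 and 3.04 CPM in Eda-/- glands, against 7.61, 9.53 and 10.2 CPM in wild-type glands (-1.25, edgeR adjusted p = 0.000387). It was the one gene of this list that passed without each library in turn; the ubiquitin ligase March1, which removes class II from the surface (-0.98, adjusted p = 0.0294), and the costimulator Cd86 (-1.24, adjusted p = 0.0488) did not. Without any 1 Eda-/- library 1 gene of the list passed. The protease Ctss, which cuts the invariant chain, had 6.72, 6.00 and 5.61 CPM in Eda-/- glands, against 12.5, 14.8 and 28.4 CPM in wild-type glands, and did not pass (-1.60, edgeR adjusted p = 0.0833).

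Of 15 regulators of MHC transcription, all tested, 3 were lower and the median was -0.10. Relb, an NF-kB subunit of the noncanonical pathway, had 4.02, 3.84 and 2.96 CPM in Eda-/- glands, against 6.42, 7.18 and 10.6 CPM in wild-type glands (-1.16, edgeR adjusted p = 0.00199), and passed without each library in turn. The NF-kB subunit Rela (-0.52, adjusted p = 0.0488) and Spi1, a transcription factor of myeloid cells (-1.26, adjusted p = 0.0472), each lost their call without most single libraries, so that 1 regulator passed without any 1 Eda-/- library or wild-type 2 and 4 without wild-type 1. Spi1, with 8, 7 and 4 counts in Eda-/- libraries, passed the low-count filter through wild-type glands alone. Irf1, which carries the interferon signal to MHC promoters, did not pass (-0.73, edgeR adjusted p = 0.0886), though its groups did not overlap. Of 6 MHC-like genes outside the H2 symbols 5 were tested and 3 fell, with a median of -0.78. Azgp1, a soluble protein with a class I fold that is secreted by exocrine glands, had 17.5, 16.2 and 20.1 CPM in Eda-/- glands, against 94.4, 93.2 and 80.9 CPM in wild-type glands. It passed without each library in turn (-2.32, SE 0.10, edgeR adjusted p = 1.58e-10). Hfe, which sets iron uptake (-1.46, adjusted p = 0.0166), and Mr1, which presents vitamin B metabolites (-0.78, adjusted p = 0.0424), fell too. Hfe did not pass without Eda-/- 1, Eda-/- 3 or wild-type 3, and Mr1 did not pass without any 1 of the 6 libraries (lowest adjusted p 0.0527). Hfe, with 6, 7 and 8 counts in Eda-/- libraries, passed the low-count filter through wild-type glands alone.

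The tested genes that lie among the H2 genes but are not members were described in the same way. Between H2-K2 and H2-M2 (chromosome 17, 33974659 to 37480851) 269 such genes had a row, 75 were tested, 8 were higher and 6 lower, 18.7% of those tested. The rest of chromosome 17 gave 17.6% of 540 tested genes, and all tested genes 13.1%. More than a 2-fold change with a call was found for 8% of the 75, 6.85% of the rest of chromosome 17 and 4.08% of all tested genes. By p-value the first 6 were the pseudogene Tnxa (2.73), Gm15821 (-2.03), Msh5 (1.74), the small nucleolar RNA Gm23442 (-0.64), Abhd16a (0.40) and the complement gene C4b (-1.80), and each of these passed without each library in turn. Tnxa (3, 3 and 5 counts in wild-type libraries) and Gm15821 (7, 6 and 4 in Eda-/- libraries) passed the low-count filter through 1 group alone. Msh5 did so mainly through Eda-/- glands, with 7, 10 and 15 counts in wild-type libraries. For Tnxa, Gm15821 and Msh5 passing these fits is therefore no separate support. Tnxa had 1.48, 1.97 and 1.25 CPM in Eda-/- glands, against 0.187, 0.176 and 0.321 CPM in wild-type glands, and C4b had 3.32, 2.62 and 2.73 CPM in Eda-/- glands, against 7.67, 8.06 and 14.6 CPM in wild-type glands. Both separated the groups, in opposite directions, which the filter favoured for Tnxa. The total of 14 was 9 without Eda-/- 1.

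**Figure D3:**
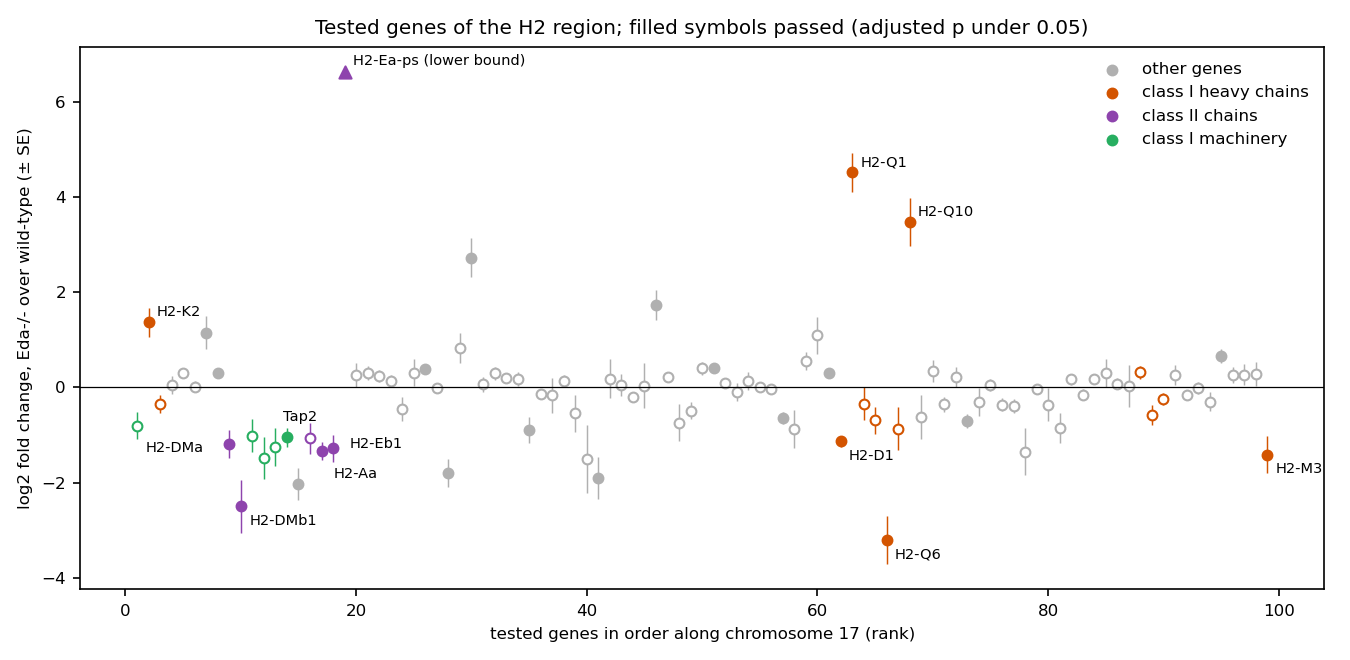
Log2 fold change of Eda-/- over wild-type with its SE (bars) for each tested gene from Tapbp to H2-M3, in order along chromosome 17 (rank on the x axis, not distance); filled symbols passed at an adjusted p under 0.05, colours mark class I heavy chains, class II chains, class I machinery and other genes, and the triangle of H2-Ea-ps is its lower bound of 6.64. The class II chains other than H2-Ea-ps lie together below 0, while H2-Q1 and H2-Q10 (4.52 and 3.48) lie within a few genes of H2-Q6 (-3.21).

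Markers of cells that carry much MHC were read in the same libraries. All 14 macrophage markers were tested, 8 fell and none rose, with a median of -1.23, and their summed level was 63.8 to 71.7 CPM in Eda-/- libraries and 114 to 205 CPM in wild-type libraries. Csf1r, whose ligand is the growth factor of macrophages, had 7.42, 6.28 and 5.69 CPM in Eda-/- glands, against 10.2, 11.9 and 16.9 CPM in wild-type glands (-1.01, edgeR adjusted p = 0.00591). Tyrobp (-1.71), Mrc1 (-0.93) and Csf1r passed without each library in turn; the number of macrophage markers that fell was 5 without Eda-/- 1 or 2 and 3 without Eda-/- 3. Of 10 dendritic cell markers 4 were tested and none passed in edgeR, with 2 at an unadjusted p under 0.05, 1 called by DESeq2 and none by limma-voom. Without wild-type 1 edgeR called 2 of them and without wild-type 3 it called 1. Their summed level was 5.81 to 7.42 CPM in Eda-/- libraries and 8.73 to 17.7 CPM in wild-type libraries. Of 6 genes of all leukocytes 2 fell, Cd53 (-1.66) and Cd52 (-1.63), 1 without any 1 Eda-/- library, and DESeq2 called 5 lower; the median was -1.39. Their summed level was 131 to 147 CPM in Eda-/- libraries and 125 to 172 CPM in wild-type libraries, most of it from Lcp1, an actin-bundling gene, with 131, 117 and 129 CPM in Eda-/- glands and 102, 109 and 117 CPM in wild-type glands (0.20, edgeR adjusted p = 0.0944). Cd52, with 8, 7 and 4 counts in Eda-/- libraries, passed the low-count filter through wild-type glands alone. B cell markers summed to 0.468 to 1.05 CPM in Eda-/- libraries and 0.385 to 0.873 CPM in wild-type libraries, with Ms4a1 at 0 in every Eda-/- library, and T and natural killer cell markers to 0.698 to 1.12 CPM in Eda-/- libraries and 1.56 to 2.44 CPM in wild-type libraries; none of either list had enough counts to be tested. In whole glands, fewer cells of a type and less RNA per cell cannot be told apart, and the part of macrophages in the lower class II levels was not tested.

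Of 5 endothelial markers, all tested, none passed (0 at an unadjusted p under 0.05 in edgeR, and 0 in DESeq2 and limma-voom), with a summed level of 21.8 to 25.6 CPM in Eda-/- libraries and 22.4 to 26.5 CPM in wild-type libraries. Of 5 ductal and epithelial markers 4 were tested and Cdh1 was lower, while of 8 acinar markers Mucl2 (1.49) and Bhlha15 (0.36) were higher. The interferon response list, chosen because interferons raise MHC genes, had 16 tested genes, all with values below 0 and a median of -1.58. None passed in edgeR or limma-voom, 7 had an unadjusted p under 0.05 in edgeR, and DESeq2 called 7; without wild-type 1 the edgeR count was 10 and without wild-type 3 it was 5, with a median of -0.87. Relative to the wild-type mean, the mean log2 CPM of this list was -1.28, -1.18 and -1.58 in Eda-/- libraries 1, 2 and 3, against -0.96, -0.06 and 1.02 in wild-type libraries 1, 2 and 3. The same measure over the 5 tested class II chains that are not pseudogenes was -1.36, -1.18 and -1.64 in Eda-/- libraries, against -0.43, -0.05 and 0.48 in wild-type libraries. In both measures wild-type 1 was the lowest and wild-type 3 the highest wild-type library, as also in the macrophage, dendritic cell, leukocyte and endothelial lists. The part of interferon signalling in the MHC levels was not tested.

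**Figure D4:**
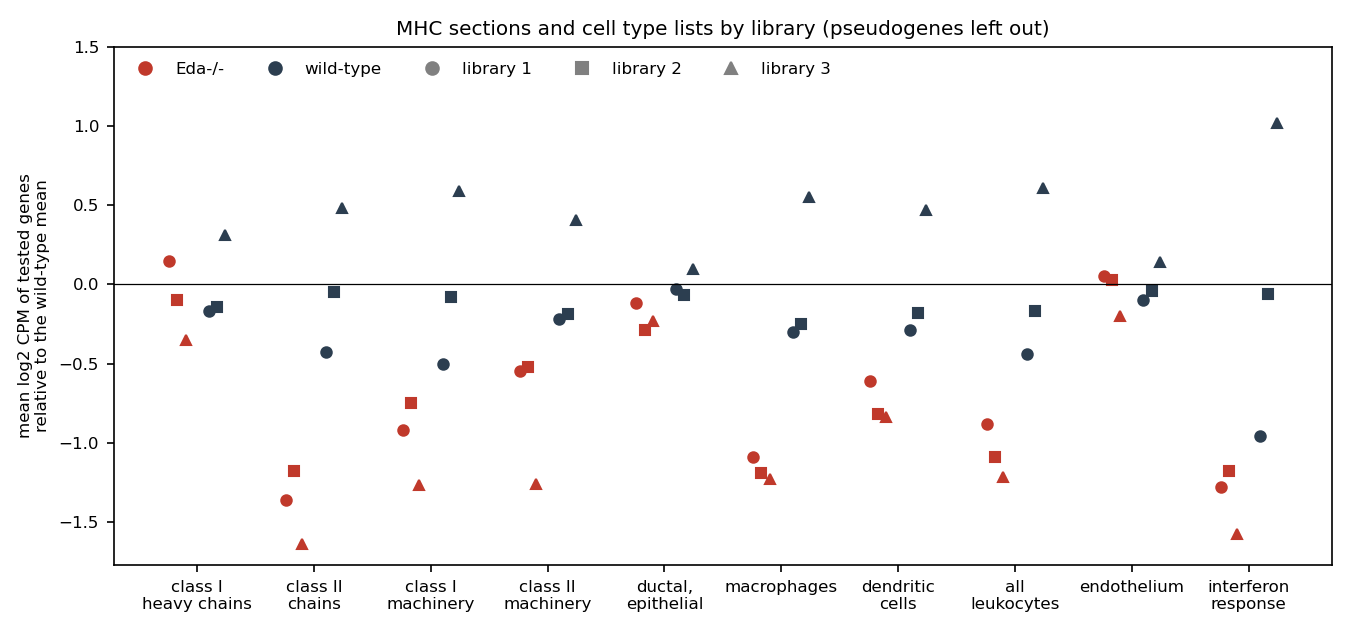
Mean log2 CPM of the tested genes of 4 MHC sections and 6 marker lists (ductal and epithelial, macrophage, dendritic cell, all leukocytes, endothelium, interferon response), pseudogenes left out, relative to the mean of the wild-type libraries (0 line); colours mark the groups and symbols the libraries. Class II chains lie at -1.64 to -1.18 in Eda-/- libraries and -0.43 to 0.48 in wild-type libraries. Class I heavy chains overlap between groups in this mean, where each gene counts alike, H2-Q1 and H2-Q10 included, but not in their summed CPM. Wild-type 3 is the highest library in each column shown.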

How the data were processed

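The authors deposited unnormalised read counts per gene, 1 column per library, without pooling. Per the labels' protocols, TRIzol-extracted RNA was depleted of ribosomal RNA and made into directional libraries. The submitters' processing notes name the build GRCm38.p5 and the tools STAR, featureCounts, Trimmomatic, bcl2fastq and DESeq2. Not given in the sources used here are their versions, the strand setting and how reads with several places were treated, so overlapping genes and near copies are uncertain. Columns were matched to samples by name. GENCODE M21 (GRCm38) gave symbols, biotypes and positions: 50462 of 50686 matched, 45823 in the same version.

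The test was that of edgeR 4.0.16, run in R 4.3.3 (filterByExpr, minimum count 10; TMM scaling; genotype alone; robust quasi-likelihood fit; two-sided; Benjamini-Hochberg over 13178 genes; threshold 0.05). SE is the absolute log2 fold change over the square root of F. CPM per kb divides by the union of exons. The floor of 3 counts covers counting error only, and reads carry no molecular identifiers. Pairs of replicate libraries differed by more than sampling noise (chi-square per degree of freedom 9.63 to 29.2). The members, lists, motifs and alternatives were chosen with earlier results of these data known. All tested members are named, and of other lists at most 6 that passed, by p-value; Ctss, Psmb5, Psmb6, Psmb7 and Irf1 were added after their values were seen. Not every listed gene is reported here. Promoters were chosen for the 6 members with the smallest p-values among those that passed and had a RefSeq entry; the windows of H2-DMa, 1 of these 6, are not shown. Same-numbered libraries did not deviate together (correlations -0.04, 0.02 and -0.09), so the numbers were not taken as pairs. Alternatives were DESeq2 1.42.0, limma-voom (limma 3.58.1), other scalings and filters, a fit without robust estimation, a replicate block, and leaving out each library. On simulated counts with gene-to-gene dispersion as estimated here, false calls exceeded the nominal share, so calls near the threshold are less certain than their adjusted p states. Figures were drawn with matplotlib. The log2 offset of the list means was 0.1 CPM.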

Additional observations from a re-analysis of the deposited data

How the results depend on the processing

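Leaving out 1 library at a time gave 1162 to 1428 genes called (1728 with all), 7 to 19 members called (13 with all), 3 to 15 lower and 4 to 4 higher. By section, class I heavy chains gave 2 to 3 lower and 3 to 3 higher, class II chains 0 to 5 lower and 1 to 1 higher, machinery 1 to 7 lower and 0 to 0 higher, antigen processing lists 4 to 13 lower (12 with all), leukocyte markers 4 to 14 lower (10 with all) and chromosome 17 neighbours 9 to 13 called. The log2 ratio of summed CPM ran from -0.83 to -0.56 for classical class I, -0.28 to 0.21 for the Q region, -0.46 to -0.19 for the T region, -1.20 to -0.75 for class II, -0.50 to -0.10 for class I machinery and -0.93 to -0.57 for class II machinery. With library totals, where the median of all genes was -0.28, 4611 genes and 23 members were called, 19 of the members lower (6 class I heavy chains, 8 machinery), with 21 antigen processing genes, 20 leukocyte markers and 24 neighbours; the ratios were -1.02 for classical class I and -0.63 for the T region. Without the low-count filter 21 members were called, 17 lower (6 class I heavy chains, 7 machinery), and 17 leukocyte markers; with a minimum count of 30, 6 members were called, 5 lower (1 class I heavy chain, 2 class II) and 1 higher (0 class I heavy chains), and 9 neighbours, as fewer members were tested. DESeq2 called 6 machinery members and 16 leukocyte markers lower; limma-voom called 14 members, 5 machinery members and 6 antigen processing genes lower; the fit without robust estimation called 15 members, 6 machinery members and 16 leukocyte markers lower. Without pseudogenes and near copies 1 class I heavy chain and 1 machinery member were lower, and 0 class I heavy chains and 0 class II chains higher, in edgeR. B2m turned to -0.22 with library totals and ran from -0.09 to 0.28 leaving out 1 library, and Psmb10 from -0.84 to 0.07. Where no reason is given, the cause was not tested. With the replicate block 13 members were called, 12 of them the same; H2-Eb1 was lost (-1.25, adjusted p = 0.152) and Psmb8 gained (-1.23, adjusted p = 0.0425). H2-Ea-ps, H2-D1, H2-K2, H2-Q1, H2-Q10, H2-Q6 and Tap2 passed in every alternative in which they were tested. H2-Ea-ps, H2-Q1, H2-Q10 and H2-Q6 passed the low-count filter through 1 group, so for them this is no separate support. Depth limits the 26 untested members and the genes at a few counts per library.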
